A study of Ambystoma mexicanum with 17 samples.

Results

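The comparison of anterior blastemas with uninjured forelimb tissue of the axolotl (Ambystoma mexicanum) was made on 8 of the 17 RNA sequencing libraries of a study of limb regeneration. The libraries were chosen by their labels: 5 named as anterior blastemas and 3 named as uninjured limb. Anterior blastemas came from forelimbs of d/d (white) axolotls, were induced by deviating a nerve, and were taken 10 days after injury with the wound epithelium in place. Uninjured tissue also came from forelimbs of d/d animals. The treatment field of the labels is none for both groups. A treatment text common to all 17 libraries also names Holtfreter's solution and DMSO, and which libraries without inhibitor received DMSO is not stated. The other 9 libraries were posterior blastemas, also taken 10 days after injury, 4 without and 5 with the MEK inhibitor U0126 at 25 uM. They entered the model that estimates the spread, and the 4 untreated ones served to test where anterior and posterior blastemas differed. An outgrowth induced by a deviated nerve is an accessory structure beside an intact limb, not the stump of an amputated one. Whether the libraries of a group stem from different animals is not stated in the labels, and p-values here reflect only how far these libraries scatter. Anterior and uninjured libraries with the same replicate number, 1 to 3, share a code in their library names, and what it stands for is not given.

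A blastema is a mound of proliferating progenitor cells under a specialised wound epithelium, from which salamanders rebuild limb tissue. Its mesenchyme comes largely from connective tissue, and its growth needs signals from nerve and epithelium. Cells of the anterior and posterior sides keep different positional identities: FGF8 is made on the anterior side and SHH on the posterior side, and both are needed together for a limb to grow out. The uninjured limb is rich in muscle, mature matrix and resting skin.

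Each of the 8 libraries held between 40717261 and 53856865 reads counted in genes. Levels are counts per 1000000 of the scaled library total (CPM), and differences are log2 fold changes of anterior blastema over uninjured tissue, so that a positive value means a higher level in the blastema. A gene was called when its p from edgeR's quasi-likelihood test, adjusted by Benjamini-Hochberg over all genes tested, was under 0.05. The standard error (SE) of a fold change is the value implied by that test. TBX5, the transcription factor of forelimb identity, was detected at 10.2 to 23.9 CPM in anterior blastemas and at 3.78 to 6.46 CPM in uninjured tissue. In bulk tissue, fewer cells of a type and less RNA per cell cannot be told apart.

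The library labelled uninjured replicate 1 stood apart from the other uninjured libraries. Its level of TNC, a matrix glycoprotein of blastemas, was 1329 CPM, against 71.6 and 78.4 CPM in uninjured replicates 2 and 3, and 920 to 1949 CPM in anterior blastemas. The skeletal muscle genes measured summed to 2283 CPM in it and to 19140 and 40990 CPM in uninjured replicates 2 and 3. A further library, posterior blastema with U0126 replicate 5, also stood apart from its group. Labels were kept, and results are given both with all 3 uninjured libraries and without uninjured replicate 1. The choice to leave that library out rests on earlier results of these data. Calls and p-values without that library do not account for the choice. The reason for its state was not tested.

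With all 3 uninjured libraries, anterior blastemas held more RNA of the transcription factors LHX9, MECOM and ALX4. They held less RNA of TAT, OAT, SLC38A4 and SLC6A9, genes of amino acid use, and of LRIG1, PIK3R1 and PIK3R2, genes of growth factor signalling. In all, 40 of 19398 genes were called (0.206%), 13 higher (0.067%) and 27 lower (0.139%) in anterior blastemas. The median log2 fold change over all genes was −0.02. Of the called genes, 25 had a gene symbol, 8 of them higher and 17 lower. An unadjusted p under 0.05 was reached by 4163 genes. The number called rested on single libraries: it was 2 without anterior replicate 1, 0 without anterior replicate 2, anterior replicate 5, uninjured replicate 2 or uninjured replicate 3, 27 without anterior replicate 3 and 24 without anterior replicate 4. DESeq2 called 1739 genes, and total-count scaling turned the split to 44 higher and 30 lower.

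LHX9, a LIM homeobox factor of the early limb bud, was at 22.6, 25.0, 11.5, 11.6 and 13.2 CPM in the 5 anterior blastemas, against 0.747, 0.173 and 0.0273 CPM in uninjured replicates 1, 2 and 3. The lowest anterior library lay far above every uninjured one, replicate 1 included. Its log2 fold change was 5.71 ± 0.95 (SE; edgeR adjusted p = 0.0297). MECOM, a zinc finger factor, was at 23.8, 30.1, 12.2, 16.6 and 14.5 CPM in anterior blastemas and at 1.30, 0.569 and 0.982 CPM in uninjured tissue. All 5 blastemas were above all 3 uninjured libraries, with a log2 fold change of 4.35 ± 0.73 (SE; edgeR adjusted p = 0.0297). ALX4, a homeobox factor that marks the anterior limb bud, was at 17.2, 25.9, 10.1, 15.4 and 16.6 CPM in anterior blastemas and at 3.15, 3.02 and 4.64 CPM in uninjured tissue. These groups did not overlap either, and the log2 fold change was 2.24 ± 0.38 (SE; edgeR adjusted p = 0.0297).

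The other 5 named genes that rose act in the cytoskeleton, at the cell surface or in protein processing. CORO2B, an actin-binding coronin, was at 5.79 to 13.6 CPM in anterior blastemas and 0.519 to 0.939 CPM in uninjured tissue (log2 fold change 3.66). INKA1, an inhibitor of the kinase PAK4, was at 15.5 to 30.7 CPM in anterior blastemas and 4.67 to 7.96 CPM in uninjured tissue (1.71). BCAM, a receptor for laminin, was at 199 to 270 CPM in anterior blastemas and 86.2 to 136 CPM in uninjured tissue (1.18). POGLUT2, a protein O-glucosyltransferase, had a log2 fold change of 0.93, and BACE1, a membrane protease, one of 0.66. In each of these 5 genes the lowest blastema lay above the highest uninjured library. These genes, and LHX9, MECOM and ALX4, were picked by a test on the same libraries, so the lack of overlap adds no support. The share of all genes without overlap was not counted.

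TAT, the enzyme that starts tyrosine breakdown and a classical glucocorticoid target in liver, was at 1.40, 2.90, 1.77, 2.80 and 2.02 CPM in anterior blastemas and at 5.68, 20.6 and 46.5 CPM in uninjured tissue. Uninjured replicate 1 was the lowest of its group yet above every blastema, and the log2 fold change was −3.48 ± 0.57 (SE; edgeR adjusted p = 0.0297). The ornithine aminotransferase OAT (−1.06), the amino acid transporter SLC38A4 (−1.93) and the glycine transporter SLC6A9 (−1.17) fell as well. SLC6A9 was at 44.5, 33.7, 41.4, 40.97 and 35.9 CPM in anterior blastemas and at 98.7, 78.5 and 87.7 CPM in uninjured tissue, with replicate 1 the highest. It had the smallest adjusted p of the comparison (edgeR, 0.0204).

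LRIG1, which turns down receptors of the EGF family and marks resting epithelial stem cells in mice, was at 7.16 to 11.2 CPM in anterior blastemas, against 12.1, 30.5 and 50.5 CPM in uninjured replicates 1, 2 and 3 (log2 fold change −1.84 ± 0.34, SE). PIK3R1 and PIK3R2, regulatory subunits of phosphoinositide 3-kinase, fell by 1.48 and 1.33 on the log2 scale. PIK3R1 was at 15.2 to 18.96 CPM in anterior blastemas and at 26.3, 44.8 and 72.1 CPM in uninjured tissue. For LRIG1 and PIK3R1, uninjured replicate 1 lay just above the blastemas. For MGARP, a mitochondrial protein (log2 fold change −1.33), it lay with the others: the range was 10.5 to 14.6 CPM in anterior blastemas and 28.5 to 31.6 CPM in uninjured tissue, with replicate 1 at its lower end. GPAT3, an enzyme of triglyceride synthesis, fell by 1.11 on the log2 scale, RUFY4 by 1.22 and the transporter SLC22A31 by 1.27.

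**Figure D1:**
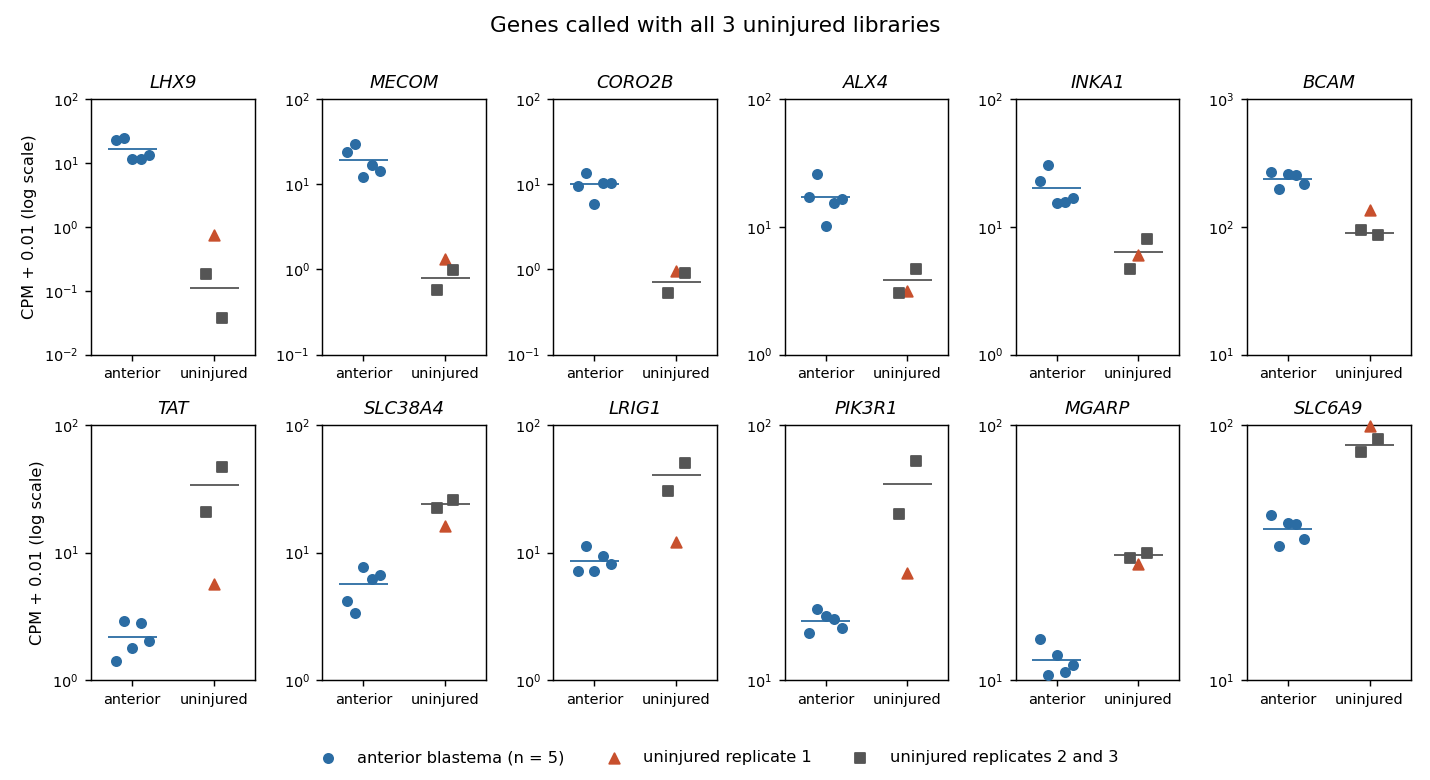
CPM + 0.01 on a log axis for 12 of the 25 named genes called with all 3 uninjured libraries; each point is a library and lines are means (5 anterior blastemas on the left, uninjured replicates 2 and 3 on the right). In all 12 genes uninjured replicate 1, the triangle, lies outside the range of the blastemas, for LHX9 at 0.747 CPM against 11.5 to 25.0 CPM.

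Without uninjured replicate 1, anterior blastemas were higher in genes from the lists of blastema mesenchyme, matrix proteases and their inhibitors, wound epithelium, cell division, ribosome assembly and macrophages. They were lower in genes from the lists of skeletal muscle and oxidative phosphorylation. Over all genes, 3675 of 19825 genes were called (18.5%), 1979 higher (9.98%) and 1696 lower (8.55%). Of these, 2745 had a gene symbol, and 1830 differed at least 2-fold, 866 higher and 964 lower. All 40 genes called with every library were called here too, in the same direction. The uninjured group then held 2 libraries, and the calls leaned far more on uninjured replicate 3 than on uninjured replicate 2. With uninjured replicate 2 as the only uninjured library, 8 genes passed, and none of the 151 called genes followed across settings was among them. Leaving out any other library left 2475 to 3695 calls. The median log2 fold change over all genes was 0.02, and 0.17 with total-count scaling, which split the calls into 2340 higher and 1118 lower. Gene lists are described by their calls in this comparison, to be read against 9.98% higher and 8.55% lower over all genes. With all 3 uninjured libraries, 4 of the 40 lists held a call: 2 higher in anterior patterning, 1 higher among integrins and laminins, 2 lower among glucocorticoid and FOXO responders and 4 lower in amino acid metabolism and transport. The other 36 lists had 0 calls in edgeR among 667 tested genes, of which 235 had an unadjusted p under 0.05 and 118 were called by DESeq2. List medians were mostly nearer to 0 with all libraries, such as 1.51 for blastema mesenchyme, 0.33 for mitosis, 0.05 for posterior patterning and −3.94 for skeletal muscle. Members of gene lists named beyond the 3 with the smallest adjusted p were chosen after their values were seen.

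The largest rises were ranked among called genes with a symbol and a mean of at least 1 log2 CPM. The top 10 of these were ODAM, PYY, IL11, SHD, LHX9, LEP, WNT9B, CYP27B1, ANGPTL6 and CIMIP1, and 6 of them encode secreted proteins. IL11, a cytokine needed for regeneration in zebrafish, was at 157, 202, 72.6, 19.1 and 31.7 CPM in anterior blastemas and at 0.371 and 0.191 CPM in uninjured replicates 2 and 3. Replicate 1 had 49.4 CPM, inside the range of the blastemas. The log2 fold change was 8.40 ± 1.97 (SE; edgeR adjusted p = 0.0136). SHD, an adaptor protein of tyrosine kinase signalling, was at 67.7, 93.0, 34.1, 46.97 and 56.4 CPM in anterior blastemas and at 0.272 and 0.355 CPM in uninjured replicates 2 and 3 (7.57 ± 1.48, SE; edgeR adjusted p = 0.00762). Here replicate 1, at 33.9 CPM, lay at the lower edge of the blastemas. With 15 and 7 reads of IL11 and 11 and 13 reads of SHD in uninjured replicates 2 and 3, both folds are imprecise.

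The hormone gene LEP (leptin) was at 4.28 to 18.1 CPM in anterior blastemas and at 0.0494 and 0.0818 CPM in uninjured replicates 2 and 3, with 4.29 CPM in replicate 1. WNT9B, a secreted WNT ligand, was at 3.34 to 8.94 CPM in anterior blastemas and at 0.0989 and 0 CPM in uninjured replicates 2 and 3. Replicate 1, at 12.1 CPM, exceeded every blastema in this gene. CYP27B1, which makes the active form of vitamin D, was at 26.7 to 172 CPM in anterior blastemas, against 0.939 and 1.25 CPM in uninjured replicates 2 and 3 and 91.8 CPM in replicate 1. The secreted ANGPTL6 had a log2 fold change of 6.49 and CIMIP1, a protein of ciliary microtubules, one of 5.74. Uninjured replicates 2 and 3 held 0 and 9 reads of ANGPTL6 and 12 and 2 reads of CIMIP1, so both folds are imprecise. ODAM, a secreted protein of epithelia that attach to teeth, and the gut hormone PYY had no read in either uninjured replicate 2 or 3. Against a floor of 3 reads over both libraries, ODAM was at least 318-fold and PYY at least 110-fold higher in anterior blastemas.

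Among 13 tested genes of anterior patterning, 5 were called higher and 1 lower, with a median log2 fold change of 1.74. Their summed level was 119.6, 144.5, 77.6, 94.8 and 94.6 CPM in anterior blastemas and 57.7 and 64.3 CPM in uninjured replicates 2 and 3, and replicate 1 was lowest of all at 38.1 CPM. LHX9 (7.32 ± 1.11, SE; edgeR adjusted p = 0.00411), ALX4 (2.16) and GLI3 (1.88) rose. With only 7 and 1 reads of LHX9 in uninjured replicates 2 and 3, its fold is imprecise. GLI3, a hedgehog effector that acts as a repressor on the anterior side of limb buds, was at 19.6 to 45.0 CPM in anterior blastemas, 11.8 CPM in uninjured replicate 1 and 7.44 and 9.68 CPM in the others. MAB21L2, a factor of limb and eye development, was at 3.97 to 11.5 CPM in anterior blastemas, against 0.193, 0.470 and 1.28 CPM in uninjured replicates 1, 2 and 3 (2.98). LHX2, a close relative of LHX9 named after its values were seen, was at 2.08 to 9.27 CPM in anterior blastemas, 0.506 CPM in uninjured replicate 1 and 0 and 0.0546 CPM in the others. In none of these 5 genes did replicate 1 reach the range of the blastemas. The homeobox gene IRX3, also named after its values were seen, fell by 1.16 on the log2 scale.

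FGF8, the anterior outgrowth signal, was at 5.28, 3.31, 1.42, 0.959 and 0.797 CPM in anterior blastemas and at 0.0723, 0.222 and 0.191 CPM in uninjured tissue. The groups did not overlap, but the test was not passed (log2 fold change 3.50 without replicate 1; edgeR adjusted p = 0.0934). With 9 and 7 reads of FGF8 in uninjured replicates 2 and 3, its fold is imprecise. Of 14 tested genes of posterior patterning and hedgehog signalling, 2 were called higher (14.3%, against 9.98% over all genes) and 1 lower (7.14%, against 8.55%). HOXD10, a homeobox gene of the distal limb, rose by 4.53 and the zinc finger gene SALL1 by 4.35 on the log2 scale. Uninjured replicates 2 and 3 held 10 and 19 reads of HOXD10 and 0 and 11 reads of SALL1, so both folds are imprecise. SHH had 2 reads in all 5 anterior blastemas together and 0, 2 and 39 reads in uninjured replicates 1, 2 and 3. Its call (edgeR adjusted p = 0.0475) thus came from 1 uninjured library, so no fold is given. HAND2, which acts upstream of SHH in limb buds, was at 0.930 to 4.15 CPM in anterior blastemas and at 4.91, 0.643 and 1.28 CPM in uninjured tissue, and was not called. Of 11 tested genes of proximal and distal limb identity, 2 rose (18.2%, against 9.98%) and 0 fell. These were HOXD9 (3.21) and the short stature gene SHOX (2.06).

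Genes of blastema mesenchyme rose in 7 of 17 tested cases and fell in 1, with a median of 2.35. SALL4, a zinc finger factor of stem and progenitor cells, was at 41.9, 42.4, 28.9, 19.5 and 22.8 CPM in anterior blastemas and at 1.85 and 0.327 CPM in uninjured replicates 2 and 3, with 19.2 CPM in replicate 1 (4.82 ± 0.80, SE; edgeR adjusted p = 0.00489). The growth factor MDK (midkine) was at 1213, 1301, 676, 1497 and 1034 CPM in anterior blastemas and at 122 and 63.4 CPM in uninjured replicates 2 and 3, with 677 CPM in replicate 1 (3.62 ± 0.62, SE). TNC rose by 4.22 ± 0.72 (SE) on the log2 scale. For SALL4, MDK and TNC, replicate 1 lay with the blastemas or at their lower edge.

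PRRX1, the homeobox factor of limb mesenchyme, was at 10.9 to 31.5 CPM in anterior blastemas and at 1.28 and 2.02 CPM in uninjured replicates 2 and 3 (3.59), with 6.91 CPM in replicate 1, between both groups. MSX2 (3.15), the retinoic acid binding protein CRABP2 (2.35) and the follistatin-like FSTL1 (1.55) rose too. DPT, a matrix protein of resting dermis, fell by 1.79 on the log2 scale. PRRX2 and MSX1 had log2 fold changes of 2.43 and 4.61 but were not called (edgeR adjusted p = 0.0554 and 0.0964). The fold of MSX1 is imprecise, with 7 and 0 reads in uninjured replicates 2 and 3. POSTN, a matrix protein of wounds, was at 1315 to 3329 CPM in anterior blastemas and at 1235, 540 and 1675 CPM in uninjured tissue, and its groups overlapped (edgeR adjusted p = 0.205).

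Matrix genes moved in both directions. Of 31 tested genes of connective tissue matrix, 6 rose and 5 fell (median 0.13). TGFBI, an adhesive matrix protein, was at 799, 1070, 610, 805 and 734 CPM in anterior blastemas and at 121 and 76.2 CPM in uninjured replicates 2 and 3 (3.03 ± 0.50, SE; edgeR adjusted p = 0.00489), and THBS2 rose by 1.94. ELN, the elastin of mature elastic fibres, was at 5.10, 10.5, 8.38, 14.9 and 14.4 CPM in anterior blastemas and at 119 and 218 CPM in uninjured replicates 2 and 3 (−3.98 ± 0.80, SE; edgeR adjusted p = 0.00821). Uninjured replicate 1 had 4.58 CPM of ELN, below all blastemas. The microfibril gene FBN1 (−2.72) and the tenascin TNXB (−4.66), both named after their values were seen, fell too. COL1A1, the main fibrillar collagen, was not called, at 2771 to 4980 CPM in anterior blastemas and 3250, 4754 and 6787 CPM in uninjured tissue.

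Of 19 tested matrix proteases and their inhibitors, 9 rose and 1 fell. MMP11 was at 106 to 178 CPM in anterior blastemas and at 13.8 and 15.6 CPM in uninjured replicates 2 and 3 (3.18), with 83.0 CPM in replicate 1. The membrane-bound MMP14 (2.26), the lysosomal collagenase CTSK (2.04) and the aggrecanase ADAMTS4 (4.54) rose, while the urokinase gene PLAU fell by 1.20 on the log2 scale. MMP9 had a log2 fold change of 1.92 and missed the threshold (edgeR adjusted p = 0.0529). Among 31 integrins, laminins and their partners, 6 rose (19.4%, against 9.98% over all genes) and 2 fell (6.45%, against 8.55%). The fibronectin receptor subunit ITGA5 was at 50.8 to 111 CPM in anterior blastemas and at 10.8 and 16.3 CPM in uninjured replicates 2 and 3 (2.62). The laminin chain LAMA1 (2.74) and the collagen receptor ITGA11 (2.83) rose, and the muscle laminin chain LAMA2 fell by 2.62 on the log2 scale. Of 20 cartilage and bone genes, 2 rose (10%, against 9.98% over all genes) and 1 fell (5%, against 8.55%). COL2A1 (2.66) and COL11A1 (1.55) rose and the chondrocyte factor SOX6 (−1.36) fell.

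Wound epithelium genes rose in 6 of 20 tested cases, and 0 fell (median 1.14, the same with DLX6 set at its bound). With all 3 uninjured libraries, edgeR and DESeq2 called 0 of the 20, and 3 had an unadjusted p under 0.05 in edgeR. DLX6, a homeobox factor of the limb's edge, had no read in uninjured replicates 2 and 3 and 0.797 to 2.84 CPM in anterior blastemas, at least 50.2-fold higher. Its neighbour DLX5 was at 8.95 to 20.1 CPM in anterior blastemas and at 2.22 and 3.52 CPM in uninjured replicates 2 and 3 (2.22). The zinc finger factor SP9 (1.56) and the fibronectin gene FN1 (1.99), a protein laid down in wounds, rose as well. In all 6 genes uninjured replicate 1 was within or above the range of the blastemas. Of 15 genes of differentiated epidermis, 1 was called lower (6.67%, against 8.55% over all genes) and the other 14 were not called. The called gene was PPL, a plakin of the cornified envelope, which fell by 0.99 on the log2 scale. Of the 15, 10 had a positive log2 fold change and 5 a negative one (median 0.18).

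**Figure D2:**
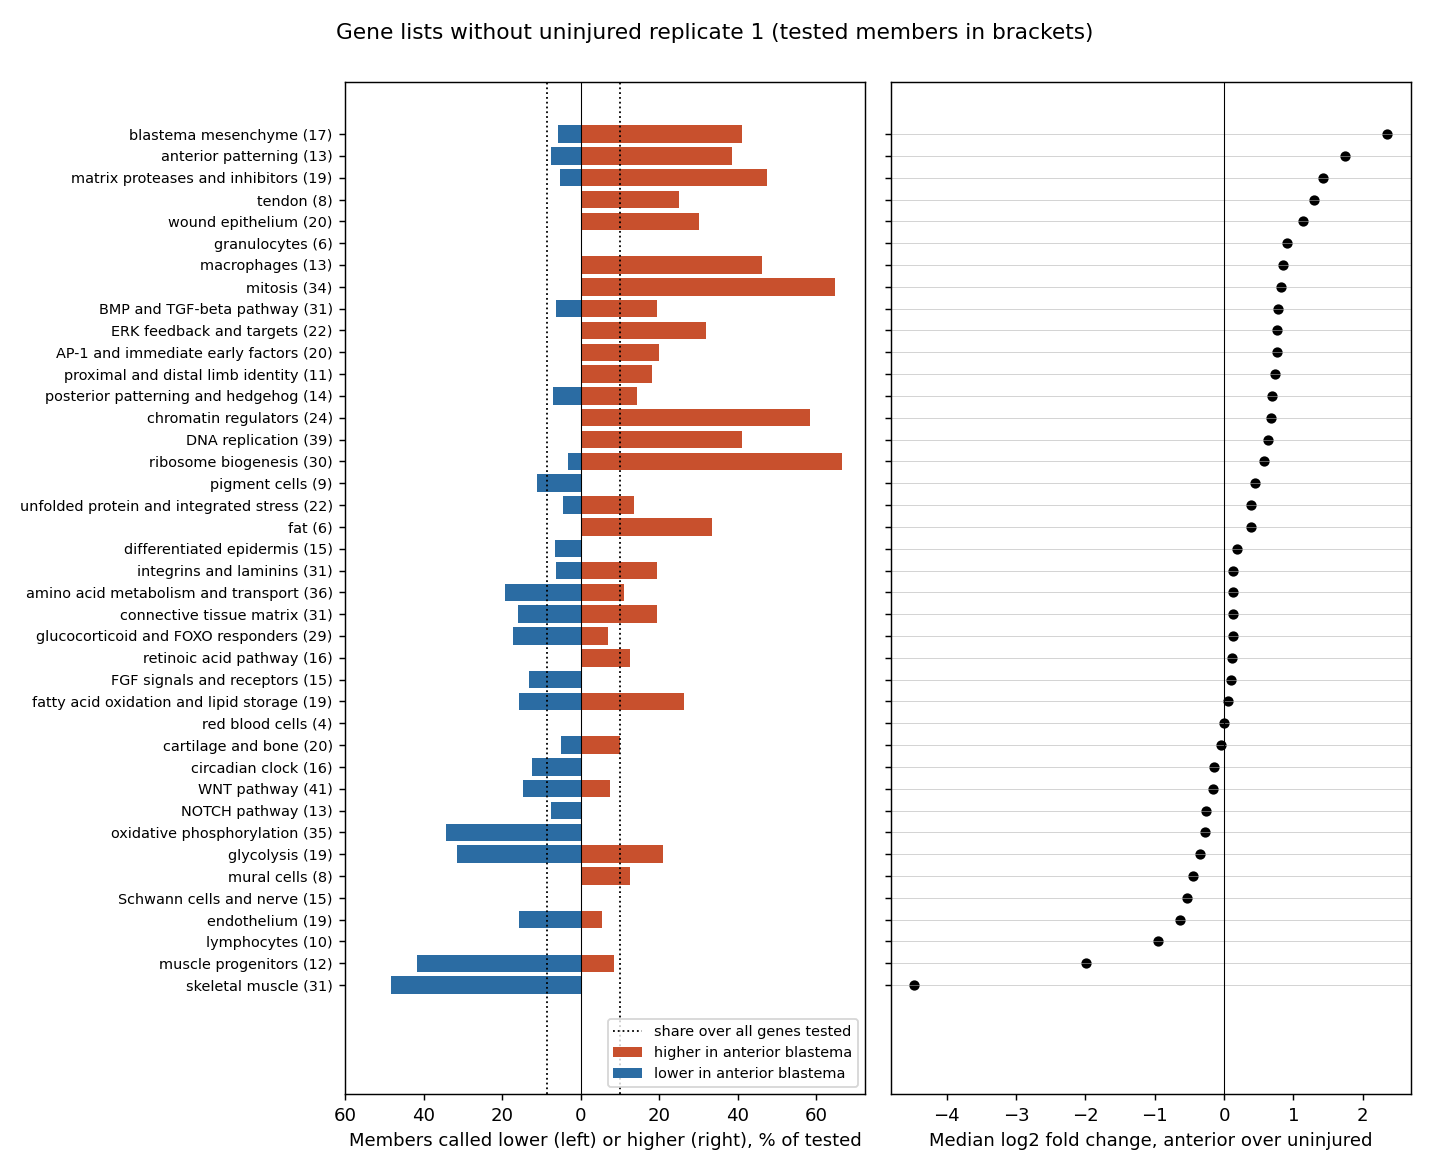
Left, percent of tested members of each gene list called higher (right of 0) or lower (left of 0) in anterior blastemas without uninjured replicate 1, with the shares over all genes (9.98% and 8.55%) dotted; right, the list's median log2 fold change. Blastema mesenchyme has the highest median, 2.35, and skeletal muscle the lowest, −4.46.

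Genes of cell division shifted by small but regular amounts. Of 34 tested mitosis genes, 22 rose and 0 fell, and all 34 had a positive log2 fold change (median 0.83). With all 3 uninjured libraries, edgeR and DESeq2 called 0 of the 34, and 0 had an unadjusted p under 0.05. ECT2, which drives cytokinesis, was at 20.6, 21.04, 21.1, 17.7 and 22.4 CPM in anterior blastemas and at 9.66 and 6.27 CPM in uninjured replicates 2 and 3 (1.37 ± 0.26, SE; edgeR adjusted p = 0.00726). The spindle checkpoint kinase TTK (1.24), the condensin SMC2 (1.16) and the mitotic kinase PLK1 (1.50) rose with it. Of 39 DNA replication genes, 16 rose and 0 fell (median 0.63), among them the clamp loader subunit RFC2 (1.30) and the helicase subunits MCM4 (0.89) and MCM6 (1.06). With all 3 uninjured libraries, both tools called 0 of the 39, and 6 had an unadjusted p under 0.05 in edgeR. In all 22 mitosis and all 16 DNA replication genes that rose, uninjured replicate 1 was within or above the range of the blastemas. It had 25.5 CPM of ECT2 and 48.3 CPM of RFC2, against 42.05 to 46.6 CPM of RFC2 in anterior blastemas. The proliferation marker MKI67 was not called, at 253 to 335 CPM in anterior blastemas and 354, 295 and 220 CPM in uninjured tissue. PCNA missed the threshold (0.73; edgeR adjusted p = 0.0797).

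Ribosome biogenesis genes rose in 20 of 30 tested cases and fell in 1 (median 0.58). With all 3 uninjured libraries, edgeR and DESeq2 called 0 of the 30, and 10 had an unadjusted p under 0.05 in edgeR. POLR1B, a subunit of the polymerase that transcribes ribosomal RNA genes, was at 17.1, 18.8, 21.9, 18.5 and 19.4 CPM in anterior blastemas and at 8.95 and 9.41 CPM in uninjured replicates 2 and 3 (1.06 ± 0.17, SE; edgeR adjusted p = 0.00435). RRP9 (0.99) and UTP4 (0.95), factors of small subunit assembly, rose, and the helicase DDX21 fell by 0.54 on the log2 scale. The summed level of this list overlapped between the groups, at 6012 to 6699 CPM in anterior blastemas and 5842 and 6522 CPM in uninjured replicates 2 and 3. Of 24 tested chromatin regulators, 14 rose and 0 fell (median 0.67), including the architectural protein HMGA2 (1.94) and the histone deacetylase HDAC1 (0.85). Uninjured replicate 1 was in or above the blastema range for all 20 of the ribosome biogenesis genes that rose and for 9 of these 14.

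Macrophage genes rose in 6 of 13 tested cases, and 0 fell (median 0.85). The lipid carrier APOE was at 1462, 1359, 996, 1133 and 1182 CPM in anterior blastemas and at 278 and 106 CPM in uninjured replicates 2 and 3 (2.67 ± 0.59, SE; edgeR adjusted p = 0.0115), with 1100 CPM in replicate 1. The transmembrane glycoprotein GPNMB (2.98), the acid phosphatase ACP5 (1.75), the scavenger receptor MARCO (2.10) and the complement gene C1QA (1.11) rose. C1QA was the 1 of 6 in which replicate 1, at 37.6 CPM, lay with the other uninjured libraries, at 51.6 and 25.3 CPM, rather than with the blastemas, at 66.4 to 99.4 CPM. In edgeR, 0 of 6 granulocyte genes, 0 of 10 lymphocyte genes, 0 of 15 genes of Schwann cells and nerve and 0 of 4 red blood cell genes were called. Unadjusted p-values were under 0.05 for 1, 0, 6 and 0 of them, and DESeq2 called 0, 0, 3 and 0. All 6 granulocyte genes had a positive log2 fold change (median 0.91) and all 10 lymphocyte genes a negative one (median −0.95). Genes of Schwann cells and nerve had 5 positive and 10 negative values, and red blood cell genes 2 and 2. Only 6 of 15 granulocyte symbols and 13 of 22 macrophage symbols were present in the data. Of 19 endothelial genes, 1 rose (5.26%, against 9.98% over all genes), 3 fell (15.8%, against 8.55%) and 15 were not called. The tight junction gene CLDN5 rose by 3.17. PROX1 (−1.98) and FLT4 (−1.78), genes of lymphatic endothelium, and the vessel factor ERG (−1.53) fell.

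**Figure D3:**
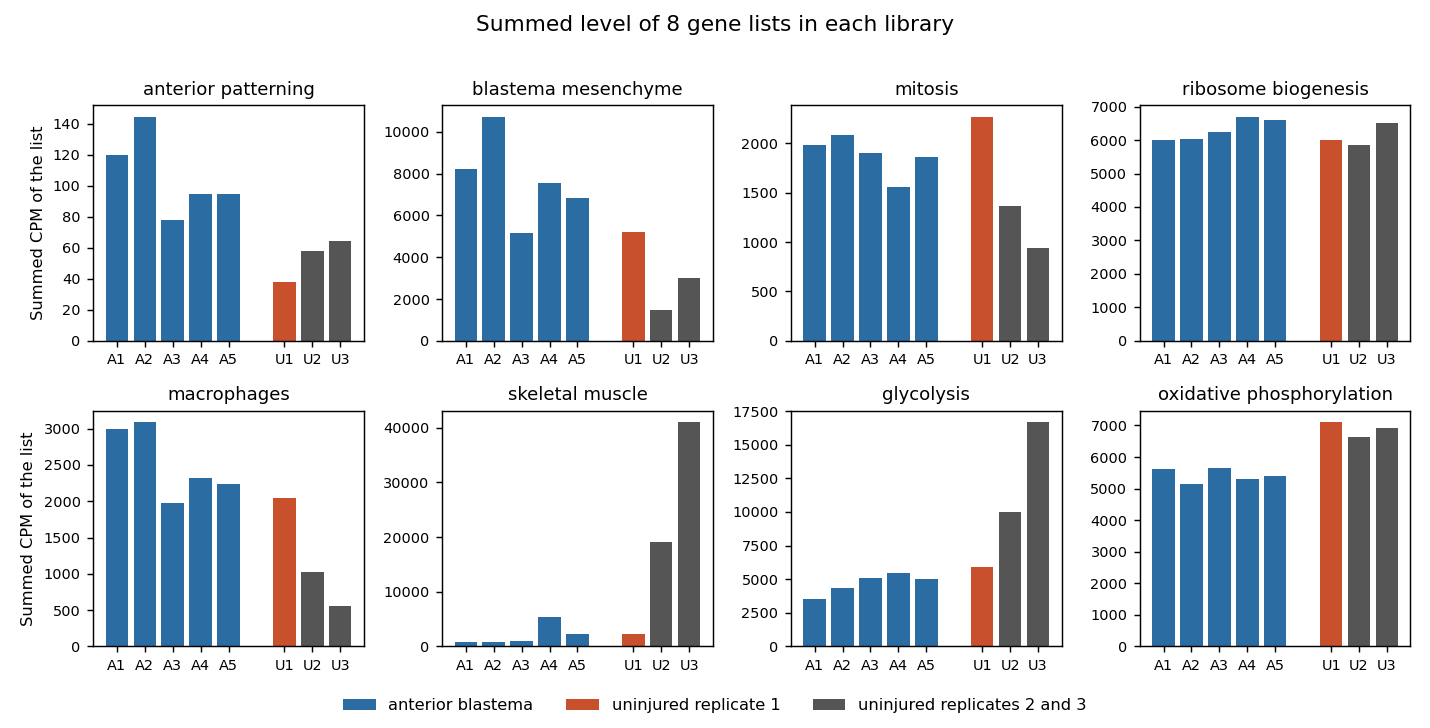
Summed CPM of 8 gene lists in each library (A1 to A5, anterior blastemas; U1 to U3, uninjured). Skeletal muscle ranges from 816 to 5420 CPM in anterior blastemas against 19140 and 40990 CPM in U2 and U3, and U1 is at 2283 CPM.

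Skeletal muscle genes were lower in anterior blastemas in all 31 tested cases, and 15 of the 31 passed the test (median −4.46). Their sum was 816, 816, 1088, 5420 and 2259 CPM in anterior blastemas. The 2 lowest and the highest blastema thus differed more than 6-fold, and anterior replicate 4 was the highest. The lowest log2 fold changes of all named genes belonged to muscle genes, among them CA3 (−8.24), a carbonic anhydrase, TECRL (−6.58) and the calcium buffer PVALB (−6.09). MYL10, a myosin light chain, was at 3.94, 3.62, 7.84, 84.2 and 26.8 CPM in anterior blastemas and at 1030 and 2353 CPM in uninjured replicates 2 and 3 (−6.06 ± 1.21, SE; edgeR adjusted p = 0.00814), with 51.0 CPM in replicate 1. The troponin TNNC1 was at 0.0552, 0.145, 2.26, 39.4 and 8.55 CPM in anterior blastemas and at 284 and 740 CPM in uninjured replicates 2 and 3 (−5.67 ± 1.54, SE). CKM, the muscle creatine kinase, had a log2 fold change of −4.86 and was not called (edgeR adjusted p = 0.0781), with anterior libraries from 0.0552 to 465 CPM. For 14 of the 15 called genes replicate 1 was in or below the range of the blastemas.

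Muscle progenitor genes fell in 5 of 12 tested cases and rose in 1. The myogenic factors MYF5 (−4.24) and MYF6 (−4.77), named after their values were seen, and MEF2C (−2.25) and SIX4 (−0.79) fell. PAX7, of the same list, was not called (−0.11; edgeR adjusted p = 0.960). It was at 0.0552 to 1.485 CPM in anterior blastemas and at 0.795, 0.371 and 1.17 CPM in uninjured replicates 1, 2 and 3. MET, the receptor of hepatocyte growth factor, was at 49.1, 42.8, 62.9, 45.8 and 68.2 CPM in anterior blastemas and at 6.995 and 6.36 CPM in uninjured replicates 2 and 3 (3.01 ± 0.70, SE; edgeR adjusted p = 0.0133), with 22.6 CPM in replicate 1. MET is not limited to muscle progenitors and is expressed in epithelia too.

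Calls among genes of energy metabolism went both ways in glycolysis and only down in oxidative phosphorylation. Of 19 glycolysis genes, 6 fell and 4 rose (median −0.34). PGK1 was at 217, 212, 254, 272 and 269 CPM in anterior blastemas and at 623 and 972 CPM in uninjured replicates 2 and 3 (−1.70 ± 0.25, SE; edgeR adjusted p = 0.00363), and the aldolase ALDOA (−3.18), TPI1 (−1.58), GAPDH (−1.46) and PKM (−1.62) fell too. The glucose transporter SLC2A1, named after its values were seen, was at 20.04 to 36.2 CPM in anterior blastemas and at 5.19 and 4.20 CPM in uninjured replicates 2 and 3 (2.53). The summed glycolysis list, at 3533 to 5436 CPM in anterior blastemas and at 5929, 9966 and 16670 CPM in uninjured tissue, was highest in the same 2 libraries as the muscle list. The part of muscle in that result was not tested. Of 35 oxidative phosphorylation genes, 12 fell and 0 rose (median −0.27). Their sum was 5624, 5151, 5648, 5317 and 5407 CPM in anterior blastemas, against 7100, 6650 and 6925 CPM in uninjured replicates 1, 2 and 3. Here replicate 1 was the highest library, and in 11 of the 12 genes it lay outside the range of the blastemas. ATP5F1C, a subunit of ATP synthase, was at 209 to 230 CPM in anterior blastemas and at 258, 295 and 354 CPM in uninjured tissue (−0.56).

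Of 19 genes of fatty acid oxidation and lipid storage, 5 rose (26.3%, against 9.98%) and 3 fell (15.8%, against 8.55%). CPT1A, the carnitine transferase that lets fatty acids into mitochondria, was at 13.4, 18.5, 11.2, 12.2 and 13.1 CPM in anterior blastemas and at 4.97 and 2.78 CPM in uninjured replicates 2 and 3 (1.82 ± 0.37, SE; edgeR adjusted p = 0.00817), with 16.6 CPM in replicate 1, inside the range of the blastemas. The lipid droplet protein PLIN2 (2.26) rose too, while the muscle form CPT1B fell by 2.40 on the log2 scale. Of 36 genes of amino acid metabolism and transport, 4 rose (11.1%, against 9.98% over all genes) and 7 fell (19.4%, against 8.55%). The serine synthesis enzyme PHGDH (0.93) and the leucine transporter SLC7A5 (1.58) rose, and TAT (−3.94), OAT (−1.23) and the mitochondrial aminotransferase GOT2 (−0.96) fell.

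Among 29 glucocorticoid and FOXO responders, 2 rose (6.9%, against 9.98% over all genes) and 5 fell (17.2%, against 8.55%). IGFBP1, a secreted binder of insulin-like growth factors, was at 83.2, 52.6, 71.4, 43.0 and 52.7 CPM in anterior blastemas and at 4.33 and 4.45 CPM in uninjured replicates 2 and 3 (3.79 ± 0.62, SE; edgeR adjusted p = 0.00489). Uninjured replicate 1 had 88.6 CPM, above every blastema. KLF15 (−2.92) and the glucocorticoid receptor NR3C1 (−0.76) fell with TAT, whereas FKBP5, at 49.4 to 288 CPM in anterior blastemas and 38.6, 90.6 and 42.6 CPM in uninjured tissue, and KLF9 were not called. Of 22 genes of the unfolded protein and integrated stress response, 3 rose (13.6%, against 9.98%), including the chaperone HYOU1 (1.54) and SESN2 (1.36). ASNS fell by 0.89 on the log2 scale (4.55% of the list, against 8.55%).

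**Figure D4:**
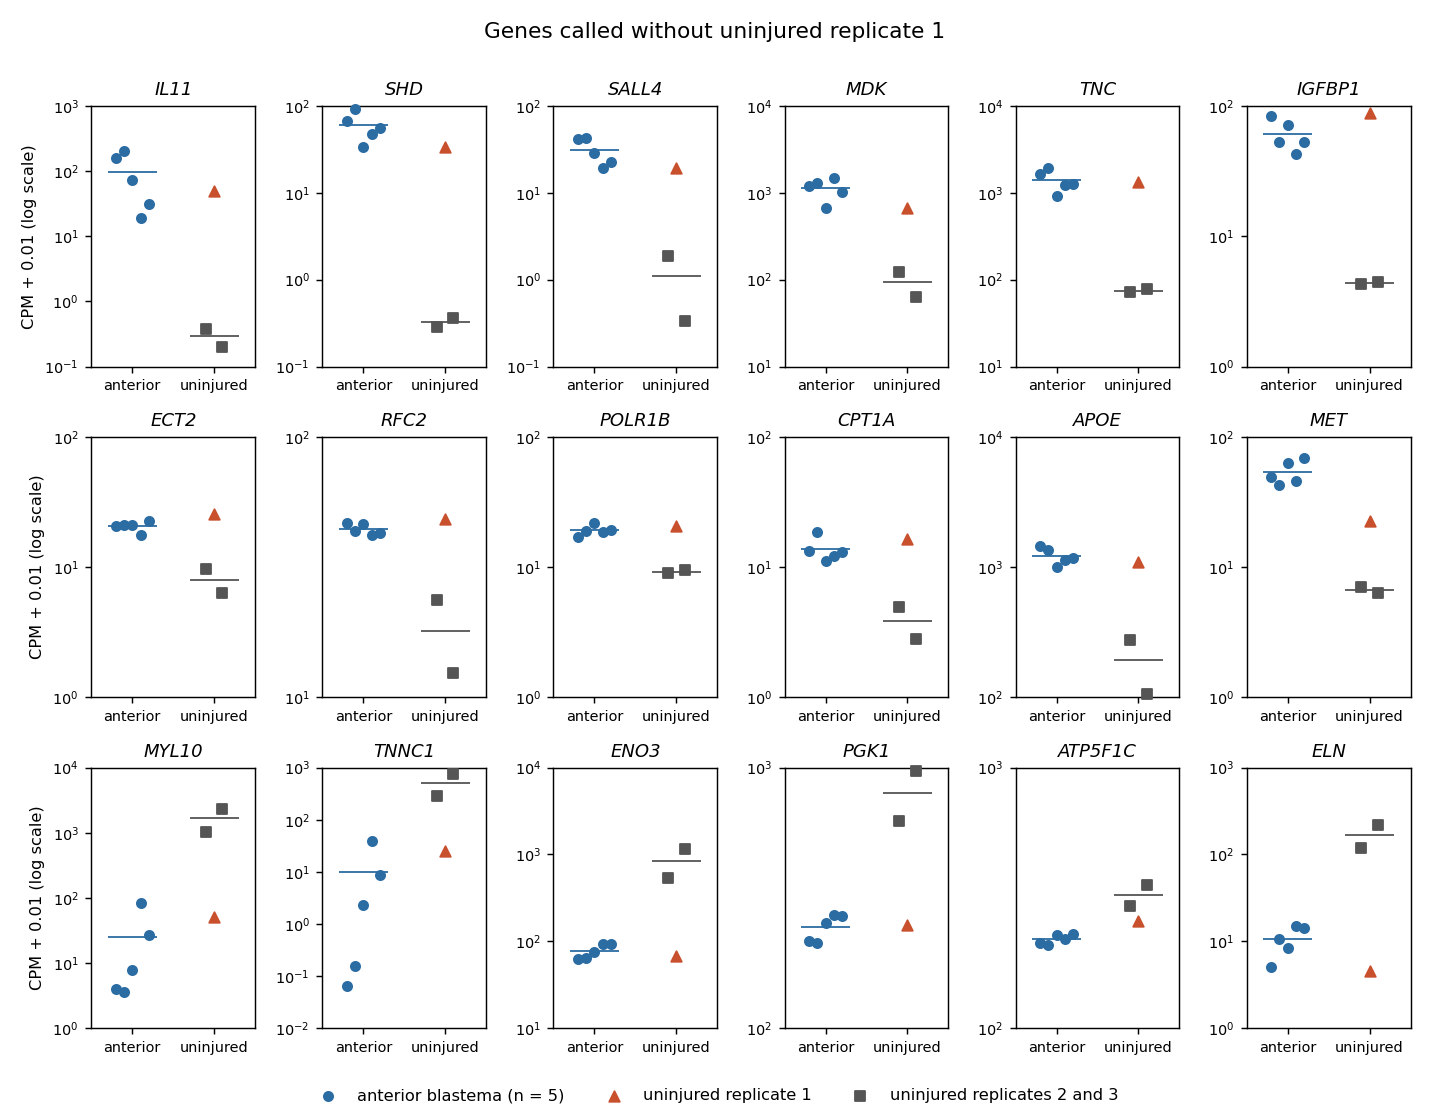
CPM + 0.01 on a log axis for 18 genes called without uninjured replicate 1; each point is a library and lines are means (5 anterior blastemas on the left, uninjured replicates 2 and 3 on the right). The triangle, uninjured replicate 1, lies near the blastemas for most, as for TNC at 1329 CPM against 71.6 and 78.4 CPM in replicates 2 and 3; MET and ATP5F1C, where it lies between, are exceptions.

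Among 22 ERK feedback genes and targets, 7 rose (31.8%, against 9.98% over all genes) and 0 fell (median 0.77). The receptor tyrosine kinase EPHA2 was at 107, 84.7, 72.7, 54.5 and 81.5 CPM in anterior blastemas and at 9.42 and 20.3 CPM in uninjured replicates 2 and 3 (2.43 ± 0.42, SE; edgeR adjusted p = 0.00549), with 52.6 CPM in replicate 1. The EGF family ligand AREG (2.38) and the FOS family factor FOSL1 (4.09) rose. FOSL1 was at 4.43, 5.32, 11.98, 12.5 and 52.7 CPM in anterior blastemas and at 1.35, 1.14 and 0.9002 CPM in uninjured tissue, so the lowest blastema exceeded all 3. Of 20 AP-1 and immediate early factors, JUNB (2.06), JUN (1.63), FOSL2 (1.03) and FOSL1 rose and 0 fell. Of 31 BMP and TGF-beta pathway genes, 6 rose (19.4%, against 9.98% over all genes) and 2 fell (6.45%, against 8.55%). The activin subunit INHBA (3.90) and the feedback inhibitor SMAD7 (1.74) were among those that rose. The co-receptor TGFBR3 (−2.04) and the activin antagonist FST (−2.03) fell.

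Of 41 WNT pathway genes, 3 rose (7.32%, against 9.98% over all genes) and 6 fell (14.6%, against 8.55%), with a median of −0.16. The WNT-enhancing ligand RSPO1 was at 0.0368 to 0.271 CPM in anterior blastemas and at 0.337, 3.81 and 10.3 CPM in uninjured tissue (−5.58 ± 1.06, SE; edgeR adjusted p = 0.00699). LGR5, a receptor for R-spondins and a marker of stem cells in mouse epithelia, was at 0.0181 to 0.0738 CPM in anterior blastemas and at 0.385, 0.272 and 1.36 CPM in uninjured tissue (−4.67), and its relative LGR6 fell by 1.63. LGR5 had only 7 reads in all 5 anterior blastemas together and 16, 11 and 50 reads in uninjured replicates 1, 2 and 3, so its fold is imprecise. The ligand WNT5B (2.78) and the receptor FZD7 (2.20) rose. Of 15 FGF signals and receptors, FGF1 (−2.42) and FGFR4 (−3.06) fell (13.3%, against 8.55%) and 0 rose. In small lists of other tissues, TNC and KERA rose among 8 tendon genes (25%) and TAGLN among 8 mural cell genes (12.5%). LEP and LPL rose among 6 fat genes (33.3%), against 9.98% over all genes. The fat gene ADIPOQ went the other way without a call (−4.55; edgeR adjusted p = 0.0579). It was at 0 to 15.4 CPM in anterior blastemas and at 51.8 and 131 CPM in uninjured replicates 2 and 3. DCT fell among 9 pigment cell genes (11.1%, against 8.55%), of which 6 had a positive log2 fold change. It had only 3 reads in all 5 anterior blastemas together and 5, 6 and 12 reads in uninjured replicates 1, 2 and 3. The retinoic acid pathway had CRABP2 and the retinol dehydrogenase RDH10 (0.76) higher among 16 genes (12.5%, against 9.98%). Of 13 NOTCH pathway genes 1 was called, lower (7.69%, against 8.55%). With total-count scaling the medians of the cartilage and bone list (−0.04) and the circadian clock list (−0.14) turned positive.

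Uninjured replicate 1 took no part in these calls, and its level was set against both groups. That library was left out because it was known from these data to resemble a blastema. Its position is thus a description and no independent check. A range over 5 blastemas also tends to be wider than one over the 2 other uninjured libraries. Of the 1979 genes that rose, uninjured replicate 1 lay within or above the range of the 5 anterior blastemas in 1452 (73.4%). It lay between both groups in 463 (23.4%) and with the other uninjured libraries in 64 (3.23%). Of the 1696 genes that fell, the numbers were 1290 (76.1%), 301 (17.7%) and 95 (5.6%), and in a further 10 the groups overlapped and replicate 1 lay in both. Posterior blastema libraries without inhibitor lay with the anterior ones for 48.4% to 81.2% of the genes that rose and for 35.7% to 73.8% of those that fell. Posterior blastemas with U0126, replicates 1 to 4, lay there for 48.2% to 78.9% and for 50.8% to 76.5%. U0126 replicate 5 lay there for 16.8% and 25.8%. By rank correlation over all tested genes, uninjured replicate 1 was closest to U0126 replicates 1 and 4 (both 0.9744). Its correlation was 0.9527 to 0.9701 with anterior blastemas and 0.9465 to 0.9744 with all U0126 libraries. With uninjured replicates 2 and 3 it was 0.9312 and 0.9001. On a scale of log2(CPM + 0.5) where the mean of uninjured replicates 2 and 3 is 0 and the anterior mean is 1, the median position of uninjured replicate 1 was 0.821 over 737 called genes whose means on this scale were at least 2-fold higher and 0.987 over 851 at least 2-fold lower. The pseudocount shrinks folds of low genes, so these are fewer than by the fitted fold changes. The lists varied in this. Replicate 1 was within or beyond the blastema range for all 22 mitosis genes and 14 of 15 muscle genes called. It was there for 0 of 5 anterior patterning genes, 2 of 7 ERK targets, 1 of 4 AP-1 factors, 2 of 6 integrins and laminins and 3 of 9 matrix proteases and inhibitors that rose, and for 1 of 12 oxidative phosphorylation and 1 of 7 amino acid genes that fell.

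**Figure D5:**
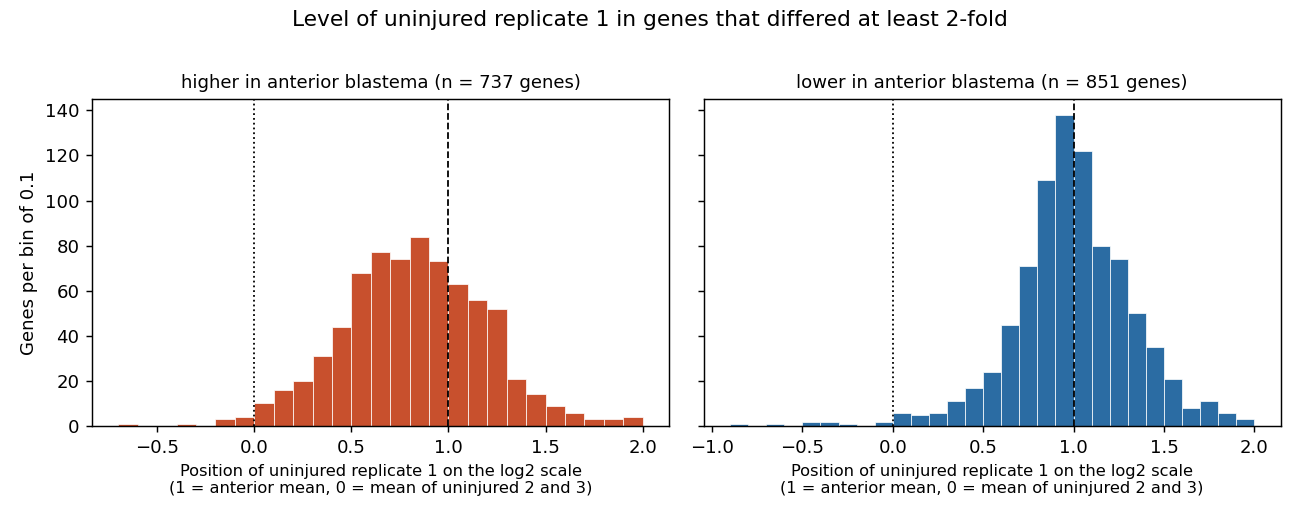
Number of genes (vertical axis) by the position of uninjured replicate 1 (horizontal axis, log2(CPM + 0.5); 1, the anterior mean, dashed; 0, the mean of uninjured replicates 2 and 3, dotted) for called genes at least 2-fold higher (left, 737) or lower (right, 851) in anterior blastemas on this scale; the first and last bins also hold values beyond them. Both distributions centre near the anterior mean, with medians of 0.821 and 0.987.

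Where the change in anterior blastemas differed from that in posterior ones was tested as the difference between both kinds of blastema in the model of all 17 libraries. The uninjured libraries are shared by both changes. Of 19398 genes, 1 was called (0.00516%): LHX9, with 11.5 to 25.0 CPM in anterior blastemas and 0.147, 0.408, 0.187 and 0.109 CPM in posterior blastemas. The difference was 6.31 ± 0.87 (SE) on the log2 scale, with an edgeR adjusted p that rounds to 0.05 and lay just under the threshold. Leaving out any of the 9 libraries of these groups took the call away, and DESeq2 called 127 genes. An unadjusted p under 0.05 was reached by 1855 genes.

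Other anterior genes differed in the same direction without a call. MECOM was at 12.2 to 30.1 CPM in anterior blastemas and at 2.20 to 7.97 CPM in posterior ones (2.03; edgeR adjusted p = 0.377). ALX4 was at 10.1 to 25.9 CPM in anterior blastemas and at 4.22 to 7.68 CPM in posterior ones (1.51; edgeR adjusted p = 0.323). For LGR5, with 0.0181 to 0.0738 CPM in anterior blastemas and 0.218 to 2.34 CPM in posterior ones, the difference was −5.30 (edgeR adjusted p = 0.0888). The anterior level of LGR5 rests on only 7 reads over all anterior libraries. The muscle gene CA3 was at 0 to 0.418 CPM in anterior blastemas and 1.80 to 13.8 CPM in posterior ones, and was not called (−6.43; edgeR adjusted p = 0.323). The summed muscle list overlapped between them, at 816 to 5420 CPM in anterior blastemas and 3409 to 20160 CPM in posterior ones. Among genes that rose against uninjured tissue, SALL4 was at 19.5 to 42.4 CPM in anterior blastemas and 21.9 to 57.4 CPM in posterior ones, which overlap. TNC, at 920 to 1949 CPM in anterior blastemas and 1143 to 1857 CPM in posterior ones, overlapped too. Not all genes that rose did so. CYP27B1 was at 26.7 to 172 CPM in anterior blastemas and 235 to 439 CPM in posterior ones (−1.61; edgeR adjusted p = 0.707). PYY was at 1.77 to 6.77 CPM in anterior blastemas and 0.680 to 1.26 CPM in posterior ones (2.14; edgeR adjusted p = 0.608). Neither overlapped and neither was called. HAND2, at 0.930 to 4.15 CPM in anterior blastemas, was at 7.15 to 30.6 CPM in posterior ones, with no overlap and no call (−3.17; edgeR adjusted p = 0.405).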

How the data were processed

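Raw counts per gene, as deposited by the authors, were read for 17 polyadenylated RNA libraries. Per the submitters' processing notes, Trimmomatic 0.39 trimmed the reads and STAR 2.7.3a aligned them. Which genome build and annotation they used is not given in the sources used here. No coordinates or sequences are shown. Per the file headers, 4 totals of reads outside genes (14.9% to 16.2% in the 8 libraries) were listed and left out. Unstranded counts were used, so reads of a gene and of one on the opposite strand or overlapping it are not separated. Of 67180 gene IDs outside tRNA, 67156 were in a RefSeq table used only for names. Groups came from the labels.

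Genes passing filterByExpr entered 1 model of all 4 groups after TMM scaling (factors 0.862 to 1.08), in R 4.3.3 (edgeR 4.0.16, quasi-likelihood F test on a robust fit, Benjamini-Hochberg, threshold 0.05). The common biological coefficient of variation was 0.446. CPM are counts per 1000000 of the scaled total. Chi-square per degree of freedom was 68.6 to 672.4 for replicate pairs, so all differed beyond sampling noise. Named genes were the 10 highest and 10 lowest log2 fold changes per comparison among called genes with a symbol and a mean of at least 1 log2 CPM, in each list up to 3 genes ranked by adjusted p, and 35 limb genes set by hand, of which a selection is described. A gene named by this rule is not reported here. The 40 lists held 895 symbols, 787 of them in the files. Members, lists, fixed genes and the comparison without uninjured replicate 1 were chosen with earlier results of these data known. Tests were checked on simulated counts, drawn independently for each library with a spread estimated without uninjured replicate 1. That check thus does not cover the deviation of that library or an origin shared between libraries. The alternatives tried were total-count and RLE scaling, no filter, a stricter filter (CPM of 1 in 3 libraries), only the 2 groups, a 2-fold minimum, DESeq2 1.42.0, the replicate number as a block and leaving out each library; leaving out U0126 replicate 5 was an alternative chosen after seeing the data. Figures were drawn with matplotlib 3.10.9 in Python 3.11.15.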

Additional observations from a re-analysis of the deposited data

Results flagged for a closer look

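In 18 of 174 genes looked at, 1 of the 5 anterior blastemas lay far from the other 4. For independent, normally distributed values, chance flags about 1 in 20 such groups. CPM need not be normal, and genes of muscle were flagged together in 1 library. The 18 of 174 can thus not be set against that rate. Anterior replicate 4 was the high library for 9 genes expressed in muscle or its progenitors. It had 84.2 CPM of MYL10 (others 3.62 to 26.8), 61.3 CPM of MYL3 (others 0.0552 to 11.6), 39.4 CPM of TNNC1 (others 0.0552 to 8.55) and 103 CPM of TNNT1 (others 0.147 to 16.3). It had 21.7 CPM of PVALB (others 0.0368 to 5.88), 0.418 CPM of CA3 (others 0 to 0.057), 1.84 CPM of MYF5 (others 0 to 0.258), 0.812 CPM of MYF6 (others 0 to 0.187) and 12 CPM of the integrin ITGA7 (others 2.68 to 4.49). The same library was high for MMP9, at 101 CPM (others 51.5 to 60.9), and LGR5, at 0.0738 CPM (others 0.0181 to 0.0234), and low for MKI67, at 253 CPM (others 324 to 335). LGR5 had only 7 reads in the 5 anterior blastemas together, so its flag may be read noise. Anterior replicate 5 stood out with 52.7 CPM of FOSL1 (others 4.43 to 12.5) and 7.87 CPM of IGFN1 (others 0.0184 to 0.0492). Anterior replicate 1 stood out with 33.2 CPM of ODAM (others 5.31 to 9.49) and 0.0368 CPM of SHH, which is 2 reads (others 0). Anterior replicate 2 stood out with 30.2 CPM of INHBA (others 7.03 to 11.6) and 18.7 CPM of POGLUT2 (others 14.8 to 15.6).

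The change of LHX9 against uninjured tissue was larger in anterior than in posterior blastemas by 6.31 on the log2 scale, higher in 5 of 5 anterior libraries than in all posterior ones, with an edgeR adjusted p that rounds to 0.05.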

How the results depend on the processing

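With all 3 uninjured libraries the 40 calls became 86 with RLE scaling, 74 with total-count scaling, 142 with the stricter filter, 8 with only the 2 groups, 1739 with DESeq2 and 0 against a 2-fold minimum (934 unadjusted p-values under 0.05); leaving out single libraries gave 0 to 3675. Without uninjured replicate 1 the 3675 calls became 30 against a 2-fold minimum, and 8 to 3695 when a further library was left out; RLE scaling, total-count scaling, both filters, only the 2 groups and DESeq2 gave 3733, 3458, 3084, 3729, 3216 and 5028. Leaving out U0126 replicate 5 as well gave 4492. For anterior against posterior blastemas the 1 call stayed at 1 with RLE scaling and without both uninjured replicate 1 and U0126 replicate 5. It became 127 with DESeq2. It became 0 with total-count scaling, without a filter, with the replicate block and with any library of the anterior or untreated posterior blastemas left out (0 to 0). In the settings with 0 calls, other than leaving out libraries, 1742 to 2185 genes had an unadjusted p under 0.05. The causes were not tested. Of the genes followed, none changed direction under any setting.

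The replicate block gave 48 calls with all libraries, 56 (0 higher, 56 lower) on replicates 1 to 3 of the 2 groups alone and 3347 without uninjured replicate 1. Of 19 named genes called with all libraries, 10 were still called with the block over all libraries and 0 with the block on replicates 1 to 3, where 6 libraries are left. LHX9, MECOM and TAT were called with the first block and not with the second, and ALX4 with neither. Without uninjured replicate 1, 132 of 151 named genes were still called. Deviations of same-numbered libraries correlated at 0.304, −0.243 and −0.0822 (replicates 1, 2 and 3), and uninjured replicates 2 and 3 correlated best with anterior replicates 1 and 4. These values do not pair the libraries, which share a number and a library code of unstated meaning, so an animal or batch in common was not tested. Uninjured replicates 2 and 3 alone gave the uninjured level in the second comparison. Depth limits genes with few reads, such as SHH with 2 reads in anterior blastemas.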
